A study of Homo sapiens with 12 samples.

Results

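The 37 genes described here encode the enzymes, transporters and regulators that carry glucose to pyruvate and on to lactate or into the mitochondrion, and they were picked by gene symbol from the 60660 genes of each library. All 37 were found under 1 Ensembl identifier each. The libraries are mRNA libraries of LNCaP and 22Rv1, both human prostate cancer (PCa) cell lines, LNCaP from a lymph node metastasis and 22Rv1 from a xenograft that relapsed after castration. Each line was transfected with piR-4447944 mimic, a synthetic, chemically modified RNA with the sequence of that piRNA (a small RNA of the kind bound by PIWI proteins), or with NC-mimic, a control RNA, which the labels call control. All cells were deprived of androgen by 10% CS-FBS (charcoal-stripped serum), and each of the 4 groups held 3 libraries. Each line stands for 1 tumour, so a difference between the lines is one between 2 cell lines. A mimic raises the piRNA from outside the cell and only for a time. The study compared mimic with NC-mimic to find mRNAs that respond to the piRNA, and the design also sets the 2 lines side by side.

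Glycolysis splits glucose into pyruvate in the cytosol, with hexokinase, phosphofructokinase and pyruvate kinase as its regulated steps. Pyruvate is then either reduced to lactate by lactate dehydrogenase and exported by monocarboxylate transporters, or carried into the mitochondrion and turned into acetyl-CoA by the pyruvate dehydrogenase complex, which the PDH kinases switch off. Most steps have several isozymes whose use differs between tissues. Prostate epithelium is known for secreting citrate, and PCa cells for burning it instead.

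The libraries held between 12161091 and 22179601 expected counts, which RSEM estimates by dividing ambiguous reads between genes. Levels below are TPM (transcript abundance scaled for gene length and to the same total in every library), and differences are log2 fold changes of edgeR with their standard error (SE), from expected counts scaled by TMM. The 11 luminal prostate markers were measured in every library, with a summed level of 5296 to 5781 TPM in LNCaP and 2101 to 2737 TPM in 22Rv1, and the basal markers TP63, KRT5 and KRT14 stayed under 1 TPM throughout. The library of 22Rv1 with mimic, replicate 3, stood apart from the other 22Rv1 libraries, so the main results that use it are also given without it. Replicates spread more widely in 22Rv1 (common coefficient of biological variation 0.343) than in LNCaP (0.0964). The study states in general terms that its experiments were repeated independently, and the labels do not say whether the libraries of a group came from separate cultures. The p-values measure the spread between these libraries, which may be technical. In bulk RNA, fewer cells with a transcript and less of it per cell cannot be told apart.

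The 2 lines used much the same glycolytic genes, with a different set of isozymes on top. With NC-mimic, 22Rv1 had more HK2, TPI1, ENO2, LDHB, SLC16A3, PDK4, PFKFB3 and PFKFB4, and LNCaP had more PFKP, ENO3 and PGM1. The called differences ran from about 2-fold to a switch between nearly absent and well expressed. Of the 35 members tested, 11 were called, meaning an adjusted p under 0.05 with a log2 difference beyond 1 in either direction. That is 31.4% of the members, and 34.5% of the 17497 genes tested were called between the lines by the same rule, so the members' share is near the background. By direction 8 members were higher and 3 lower in 22Rv1, against 19.1% and 15.4% of all genes. The median log2 fold change over the members was 0.23, and 0.01 over all genes. HKDC1 and SLC2A3 did not pass the low-count filter.

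Of the glucose transporters among the members, SLC2A1 (GLUT1), which serves basal glucose uptake, was the one expressed in both lines. With NC-mimic its level was 36, 29.4 and 37 TPM in the LNCaP libraries and 50.3, 59 and 52 TPM in the 22Rv1 libraries. The groups did not overlap, and 22Rv1 was higher by 0.64 ± 0.14 on the log2 scale (SE; edgeR adjusted p = 0.00541), less than the 2-fold set for a call. SLC2A3 (GLUT3), known from neurons, lay between 0 and 0.13 TPM in LNCaP and between 0 and 2.01 TPM in 22Rv1. With NC-mimic it had 6 counts in LNCaP and 8 in 22Rv1, all 8 in replicate 3. The ratio was 1.48 with a 95% counting interval of 0.451 to 5.18, and no difference was detectable at this depth. With mimic it had 1 count in LNCaP and 35 in 22Rv1, all 35 in replicate 3 (ratio 35.3, interval 5.93 to 1432). These intervals leave out the spread between libraries. SLC2A3 also shares reads with near-identical copies, which held up to 100% of the reads of the family in a library, so its value is uncertain.

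At the step of lactate export the lines differed in which transporter they expressed. SLC16A1 (MCT1), which carries lactate and pyruvate in both directions, was 61.9, 47 and 60.3 TPM in LNCaP and 23, 24.8 and 35.4 TPM in 22Rv1 with NC-mimic. SLC16A3 (MCT4), a carrier suited to export from highly glycolytic cells, was 1.17, 1.5 and 3.15 TPM in LNCaP and 54.5, 62.1 and 174 TPM in 22Rv1. SLC16A3 was thus higher in every 22Rv1 library than in any LNCaP library, by 5.18 ± 0.54 on the log2 scale (adjusted p = 0.000104), while SLC16A1 was lower by -0.84 ± 0.15 (adjusted p = 0.00186). The pooled counts of SLC16A3 were 4096 in 22Rv1 and 138 in LNCaP, a ratio at equal depth of 33 (95% interval 27.8 to 39.4, for counting error only). As a share of both transporters, SLC16A1 made up 95% to 98.6% in the 6 LNCaP libraries and 10.3% to 58% in the 6 of 22Rv1. The upper end of that range was mimic replicate 1, and the lower end mimic replicate 3. By share of counts, which are not scaled for length, SLC16A1 held 34.8% to 68.2% in 22Rv1 without mimic replicate 3. Its mean there was 50.3% by counts and 30.8% by TPM, so which transporter led in 22Rv1 depended on the scale.

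At the hexokinase step, which traps glucose in the cell, HK1 had the highest mean TPM share in every group. HK2 held a larger share in 22Rv1 than in LNCaP. HK1, the constitutive form, was 71.5, 63.5 and 61 TPM in LNCaP and 70.5, 81.7 and 68.8 TPM in 22Rv1 with NC-mimic. HK2, the inducible form of muscle and of many tumours, was 13.2, 10.8 and 12.4 TPM in LNCaP and 41.5, 41.3 and 32.8 TPM in 22Rv1. HK2 was higher by 1.81 ± 0.12 on the log2 scale (adjusted p = 1.21e-05), where HK1 differed by 0.23 ± 0.11 (adjusted p = 0.0888) and did not pass the test. HK2 therefore made up 13.5% to 18.2% of the summed hexokinase TPM in LNCaP and 32.2% to 38.8% in 22Rv1 without mimic replicate 3, in which it was 63.5%. HKDC1, a related hexokinase, stayed at or below 0.06 TPM in LNCaP and 0.9 TPM in 22Rv1. ADPGK, which phosphorylates glucose with ADP, was the other hexose kinase measured, at 43.2 to 54.2 TPM in LNCaP and 22 to 33.5 TPM in 22Rv1, and it was lower in 22Rv1 by -0.67 ± 0.18 (adjusted p = 0.011).

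Phosphofructokinase, the committing step, has a liver (PFKL), a muscle (PFKM) and a platelet (PFKP) subunit, and PFKP was the one that separated the lines. PFKP was 59.6, 50.8 and 58.9 TPM in LNCaP and 5.28, 7.11 and 26.8 TPM in 22Rv1 with NC-mimic, with the third 22Rv1 library well above the other 2. The difference was -2.05 ± 0.55 on the log2 scale (adjusted p = 0.0126), and -3.15 without the NC-mimic library numbered 3. PFKM made up 47.2% to 53.6% of the family in LNCaP and 41.2% to 59.2% in 22Rv1, so its share overlapped between the lines. The share of PFKL was larger in 22Rv1, with 28.5% to 31.5% in LNCaP and 32.9% to 50.7% in 22Rv1. By share of counts PFKL, and not PFKM, had the highest mean in both groups of 22Rv1. PFKL was higher in 22Rv1 by 0.44 ± 0.10 (adjusted p = 0.00624).

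The PFKFB genes encode enzymes that make and remove the sugar bisphosphate that activates phosphofructokinase, and all 3 members were higher in 22Rv1. PFKFB3, the form with the strongest kinase side, was 9.4, 10.8 and 9.9 TPM in LNCaP and 16.6, 24.9 and 20.6 TPM in 22Rv1 with NC-mimic (log2 1.31 ± 0.17, adjusted p = 0.000314). PFKFB4 was 7.24, 10.1 and 9.72 TPM in LNCaP and 17.3, 26.3 and 12.3 TPM in 22Rv1 (log2 1.09 ± 0.24, adjusted p = 0.00503). The groups did not overlap for either gene, but PFKFB4 came to 0.76 without NC-mimic replicate 2 of 22Rv1, under the limit of the call. PFKFB2, the heart form, differed by 0.79 ± 0.18 (adjusted p = 0.00619) and was not called.

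In the middle and lower part of the pathway TPI1, ENO2 and ENO3 were called between the lines. TPI1, which interconverts the triose phosphates, was 713, 656 and 691 TPM in LNCaP and 1424, 1686 and 1580 TPM in 22Rv1 with NC-mimic, the highest mean of all members in 22Rv1. Its difference was 1.21 ± 0.10 on the log2 scale (adjusted p = 2.64e-05). ENO2, the enolase of neurons and a neuroendocrine marker, was 55, 52.7 and 57.6 TPM in LNCaP and 182, 199 and 267 TPM in 22Rv1. ENO3, the muscle enolase, went the other way, with 41.8, 49.5 and 52 TPM in LNCaP and 17.6, 13.9 and 13.8 TPM in 22Rv1. Both differences were larger than the spread between libraries, at 2.12 ± 0.16 for ENO2 (adjusted p = 1.73e-05) and -1.66 ± 0.19 for ENO3 (adjusted p = 0.000171). ENO1 remained the main enolase, with 89.5% to 91.4% of the family's TPM in LNCaP and 75.2% to 79.7% in 22Rv1, and ENO2 held 4.93% to 5.54% in LNCaP and 19% to 21.6% in 22Rv1.

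**Figure D1:**
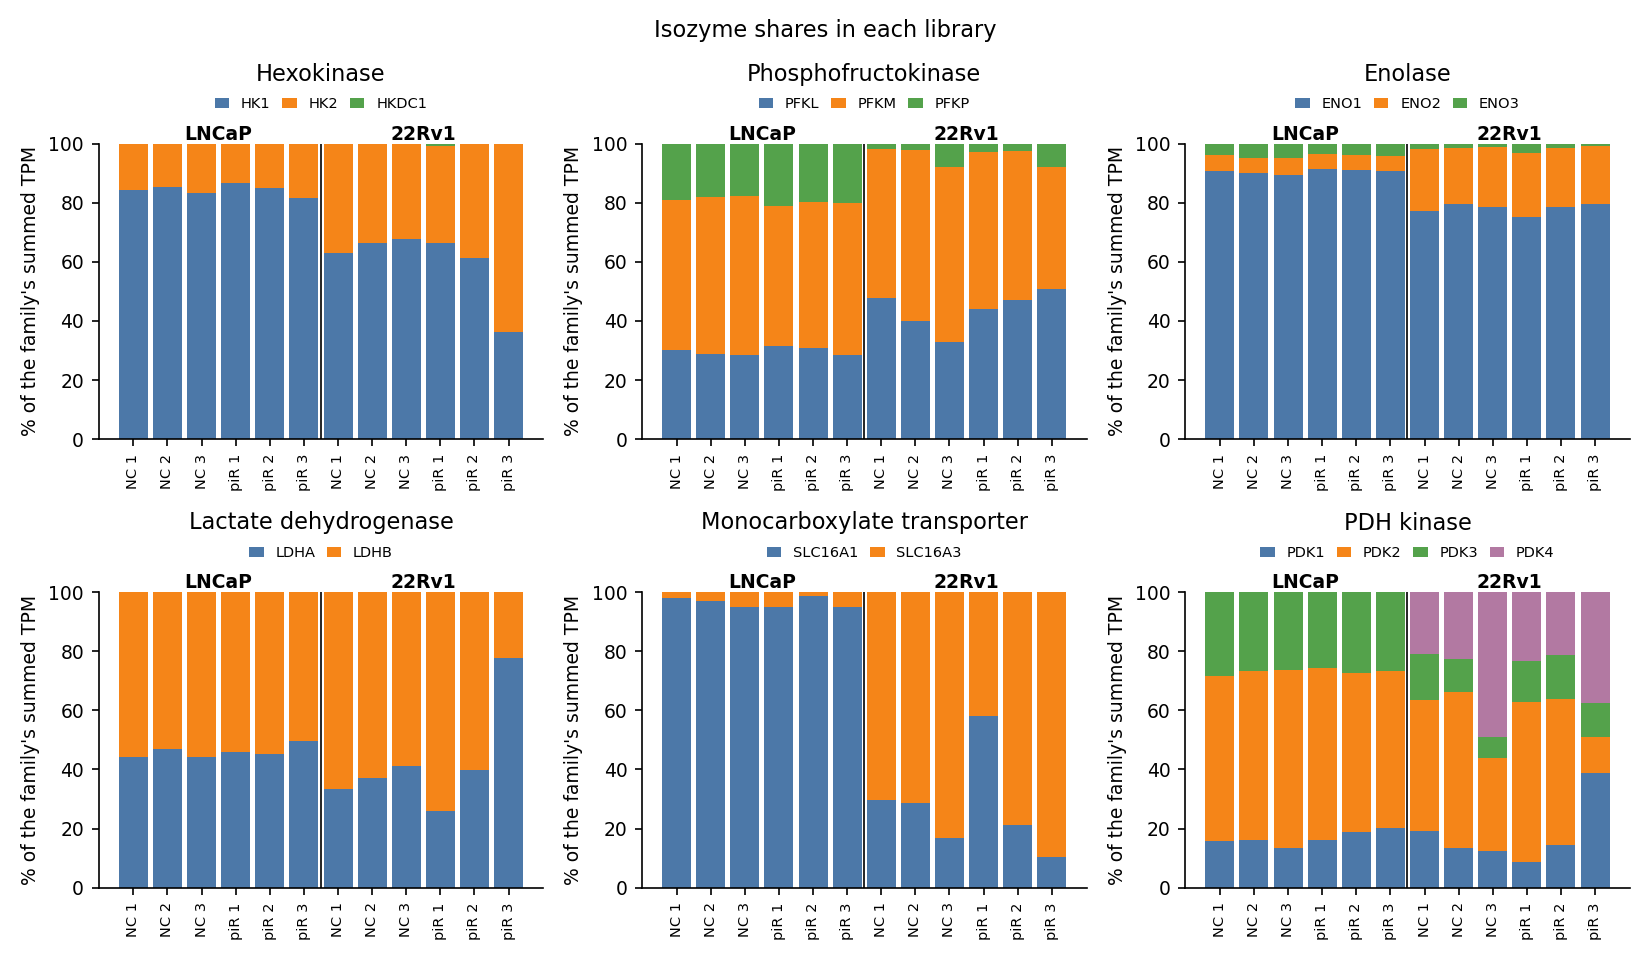
Shares of each isozyme in the summed TPM of its family, in percent, as stacked bars for the 12 libraries (NC, NC-mimic; piR, piR-4447944 mimic). PFKP fills 17.9% to 21.3% of the phosphofructokinase bars in LNCaP and 2.01% to 8.06% in 22Rv1, and PDK4 is seen in 22Rv1 but not in LNCaP.

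Other enzymes of this stretch did not pass the test between the lines with NC-mimic, or passed it below 2-fold. PGK1, which makes the first ATP of the pathway, was higher in 22Rv1 by 0.77 ± 0.22 on the log2 scale (adjusted p = 0.0156). GPI (-0.12 ± 0.15), ALDOA (0.43 ± 0.19), ALDOC (0.36 ± 0.19), PGAM1 (-0.28 ± 0.14), ENO1 (-0.11 ± 0.15), and PKM (-0.17 ± 0.10) had adjusted p-values from 0.088 to 0.548 and overlapping libraries. ALDOA, the main aldolase, held 91.1% to 92.8% of the aldolase TPM in LNCaP and 91.4% to 94.4% in 22Rv1. A readthrough gene that overlaps ALDOA held between 0.834% and 10.8% of the reads of both, and adding these reads changed none of the calls.

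Both lactate dehydrogenase subunits were higher in 22Rv1, LDHB more so. LDHA, whose product favours the making of lactate, was 336, 386 and 362 TPM in LNCaP and 525, 669 and 765 TPM in 22Rv1 with NC-mimic. LDHB, whose product favours the use of lactate and which is lost in many PCa cells, was 424, 434 and 455 TPM in LNCaP and 1046, 1133 and 1093 TPM in 22Rv1. The log2 differences were 0.91 ± 0.15 for LDHA (adjusted p = 0.00104) and 1.37 ± 0.09 for LDHB (adjusted p = 9.36e-06), and only the second passed the fold limit. LDHB made up 50.3% to 55.8% of the LDH TPM in LNCaP and 58.8% to 74.1% in 22Rv1 without mimic replicate 3, where it was 22.3%. By share of counts, which are not scaled for length, LDHA led in each LNCaP library, with 57.2% to 62.4%. In 22Rv1 without mimic replicate 3 the mean count share was 48% for LDHA and 52% for LDHB, with LDHA at 36.5% to 54.2%.

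The gate into the mitochondrion differed between the lines at the PDH kinases. PDK4, the kinase that starvation and fatty acid use induce, was at 0.07, 0 and 0 TPM in LNCaP and at 11.8, 12.6 and 52.5 TPM in 22Rv1 with NC-mimic. Pooled over 3 libraries it had 2 counts in LNCaP and 2820 in 22Rv1, a ratio at equal depth of 1567 (95% interval 433 to 12944, for counting error only). The mimic libraries gave the same picture, with 2 and 2698 counts and a ratio of 1359 (376 to 11229). The adjusted p of PDK4 was 0.000119 with NC-mimic and 0.000332 with mimic. PDK2 was the leading kinase in LNCaP, with 53.1% to 60.2% of the family's TPM, and held 31.5% to 54% in 22Rv1 without mimic replicate 3, in which it was 12.1%. By share of counts PDK3, and not PDK2, had the highest mean in all 4 groups. PDK1 (log2 -0.15 ± 0.17, adjusted p = 0.483) and PDK2 (-0.06 ± 0.11, adjusted p = 0.64) did not pass the test between the lines, and PDK3 was lower in 22Rv1 by -0.42 ± 0.09 (adjusted p = 0.00514).

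No member that forms the pyruvate carrier or the PDH complex passed the fold limit between the lines, though MPC1 and PDHA1 passed the test. MPC1 and MPC2, which together form the carrier of the inner membrane, were 16.8 to 19.9 and 146 to 165 TPM in LNCaP and 19.3 to 38.2 and 101 to 172 TPM in 22Rv1 with NC-mimic. MPC1 was higher in 22Rv1 by 0.86 ± 0.28 (adjusted p = 0.0269), and the MPC2 values overlapped. Of the PDH complex, PDHA1, its regulated subunit, was higher by 0.52 ± 0.09 (adjusted p = 0.00167), whereas PDHB (0.13 ± 0.10) and DLAT (0.19 ± 0.14) did not pass the test. Of the side branches, PGM1, which links glucose phosphates to glycogen, was 44, 39 and 43.3 TPM in LNCaP and 17.4, 19.8 and 18.4 TPM in 22Rv1, a difference of -1.12 ± 0.11 (adjusted p = 9.06e-05). BPGM, which makes the bisphosphoglycerate known from red cells, lay at 21.1 to 27.9 TPM in LNCaP and 20.6 to 28.4 TPM in 22Rv1 and overlapped.

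The same comparison was made in the mimic libraries, which share no sample with the NC-mimic libraries. The 2 comparisons may not be independent, since same-numbered libraries of 22Rv1 deviated together (correlations 0.252, 0.197 and 0.394). In the mimic libraries 9 of 35 members were called, when 32.7% of 17283 genes were called (18.8% higher and 13.9% lower in 22Rv1). The 8 higher members were again HK2 (2.92 ± 0.62), TPI1 (1.42 ± 0.30), ENO2 (3.03 ± 0.67), LDHB (1.13 ± 0.15), SLC16A3 (5.93 ± 1.14), PDK4 (10.19 ± 1.05), PFKFB3 (4.09 ± 1.28) and PFKFB4 (3.41 ± 1.11), and the 1 lower member was PFKP (-1.99 ± 0.70). Of these 11 genes all but PDK4 had larger standard errors than with NC-mimic, and ENO3 (-0.80 ± 0.40, adjusted p = 0.138) and PGM1 (-0.68 ± 0.39, adjusted p = 0.178) were not called. Without mimic replicate 3 of 22Rv1, 12 members were called, and the number of all genes called rose as well, from 5660 to 6771. ENO3 (-1.44) and PGM1 (-1.27) were among the 12 members. HK2 came to 1.86, ENO2 to 1.82, SLC16A3 to 4.11, PFKP to -3.38, PDK4 to 9.28, PFKFB3 to 1.29 and PFKFB4 to 1.09, and TPI1 (0.99) fell just short of the fold limit.

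**Figure D2:**
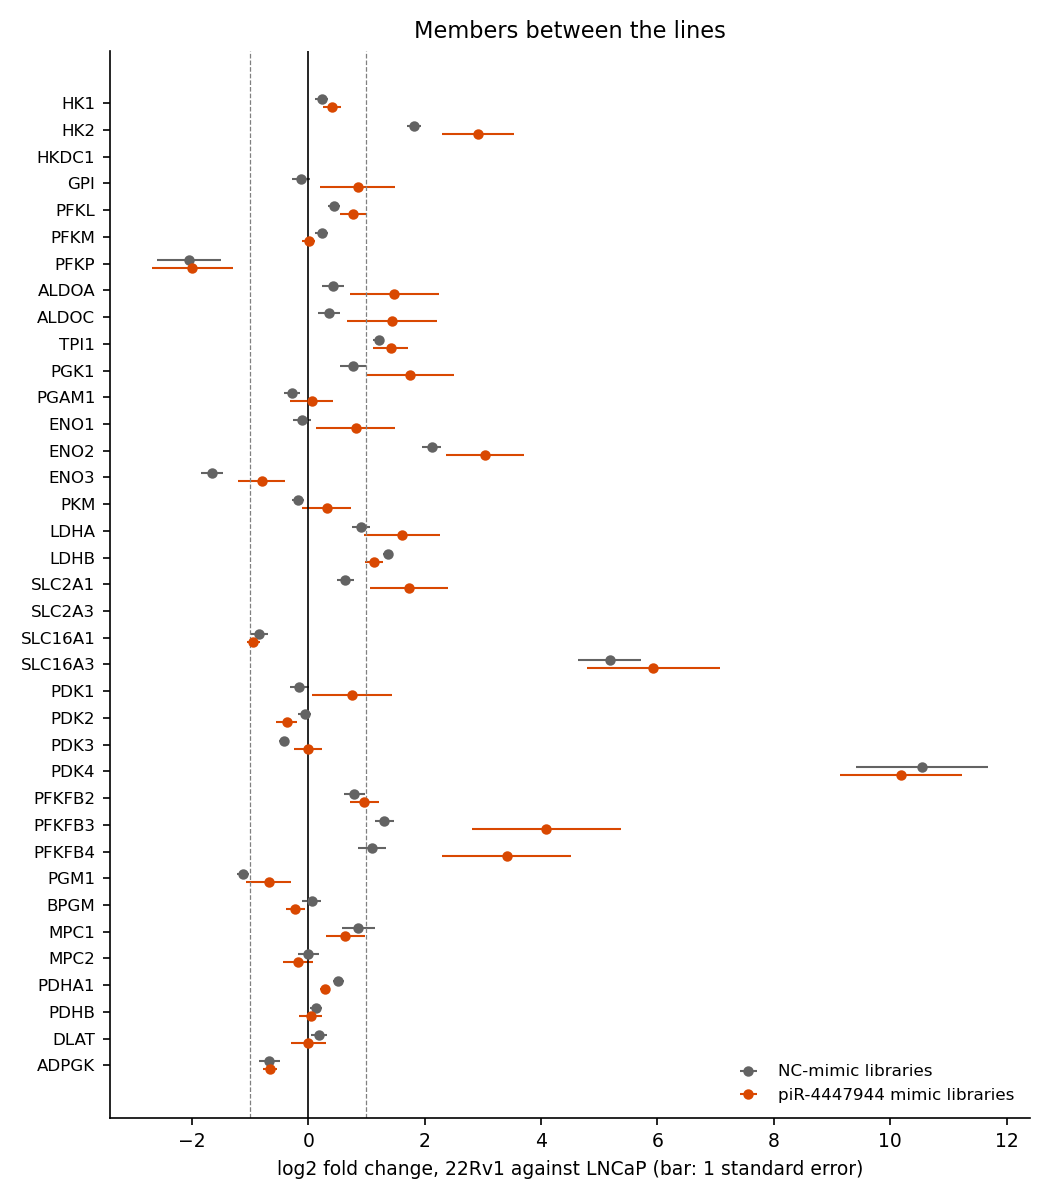
Log2 fold change of each member between the lines (22Rv1 against LNCaP; points, with bars of 1 SE) in the NC-mimic and in the mimic libraries, 3 against 3 each; dashed lines mark the fold limit of 1. SLC16A3 at 5.18 and 5.93 and PDK4 at 10.55 and 10.19 lie farthest to the right, and for HK2 the bar widens from 0.12 with NC-mimic to 0.62 with mimic.

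Other genes of the pathway, 42 in a fixed list that holds rarer isozymes, gluconeogenesis and PDH regulators, were counted in the same fits. With NC-mimic 30 were tested, 8 were called higher and 4 lower in 22Rv1. That is 40% of those tested, near the 34.5% of all genes (19.1% higher and 15.4% lower). SLC2A10 had the largest difference, at 0 to 0.02 TPM in LNCaP and 7.95 to 14.5 TPM in 22Rv1 (log2 10.31 ± 0.45). Also higher were the muscle phosphoglycerate mutase PGAM2, at 0.46 to 0.83 TPM in LNCaP and 109 to 214 TPM in 22Rv1 (log2 7.83 ± 0.40), and GAPDH, at 2562 to 2777 and 4795 to 5863 TPM (log2 1.06 ± 0.10). TIGAR, which lowers the activator of phosphofructokinase, was among the lower genes (-2.26 ± 0.24). PKLR, HK3, LDHC and FBP1 stayed at or below 1.57 TPM in every library.

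In LNCaP the differences between mimic and NC-mimic were small for these genes. Of 34 members tested, 1 met the study's rule, where 2.22% of all 16244 genes met it. The rule asks for an unadjusted p under 0.05 with an absolute log2 fold change over 0.2. It was applied here to edgeR's unshrunken changes, while the study applied it to DESeq2 changes shrunken for genes with low counts. With shrunken DESeq2 changes, 2 of all genes met it in LNCaP and 233 in 22Rv1. By an adjusted p under 0.05, 0 members and 0% of all genes were called by edgeR. The members' log2 fold changes ran from -0.10 to 0.22 with a median of 0.03, and 23 of 34 were above 0. HKDC1, SLC2A3 and PDK4 were below the filter.

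The single member was PDK1, the kinase that shuts pyruvate out of the PDH complex. It was 10.5, 11 and 9.22 TPM with NC-mimic and 11.3, 13.2 and 13.8 TPM with mimic, so the groups did not overlap. The log2 fold change was 0.22 ± 0.10 (SE), the unadjusted p of edgeR's model across genes 0.0422 and the adjusted p 0.999, and the exact permutation test gave the smallest p that 3 against 3 libraries allow, 0.1. It missed the rule without any one of the 3 mimic libraries and without NC-mimic replicate 1 or 3 (log2 0.18 each), and met it without NC-mimic replicate 2 (0.32). PFKP came to 0.18 ± 0.08 and missed the fold limit (adjusted p = 0.999). The genes set for naming whatever their values were HK2 (0.04 ± 0.11), SLC2A1 (0.05 ± 0.09), PGK1 (0.05 ± 0.06), PKM (0.02 ± 0.05), and LDHA (0.07 ± 0.08), and PFKFB3 came to 0.01 ± 0.11, all smaller than their standard errors or close to them. Summed over all members, the level was 6370 to 6681 TPM with NC-mimic and 6631 to 6783 TPM with mimic. Of the other pathway genes, 1 of 26 tested met the rule (3.85%, against 2.22% of all genes). It was the pyruvate carboxylase gene PC, which was lower by -0.22 ± 0.08 (adjusted p = 0.999).

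In 22Rv1 the mean of the mimic group was higher for most glycolytic genes, and that mean rested on 1 of its 3 libraries. Of 35 members tested, 1 met the study's rule, PFKFB3, where 1.48% of 16898 genes met it. By an adjusted p under 0.05, 0 members and 0% of all genes were called. The median log2 fold change over the members was 0.32, and -0.01 over all genes, with 24 of 35 above 0. Without mimic replicate 3 the median was -0.15, 10 members were above 0 and 0 met the rule, which 376 of all genes met.

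PFKFB3 shows the pattern most clearly. Its level was 16.6, 24.9 and 20.6 TPM with NC-mimic and 13.8, 32.1 and 397 TPM with mimic. The groups overlapped, since the first mimic library was below all control libraries, and the third was far above every other. The log2 fold change of 2.75 ± 1.16 (SE) had an unadjusted p of 0.0483 in edgeR's model across genes and an adjusted p of 0.999, and the exact permutation p was 0.6. Without mimic replicate 3 the change was -0.027. With the replicate number as a block it was 1.11 ± 0.92, and 0 members met the rule.

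The same held for the genes set for naming. HK2 was 41.5, 41.3 and 32.8 TPM with NC-mimic and 34.8, 50.9 and 187 TPM with mimic (log2 1.13 ± 0.56). SLC2A1 was 50.3, 59 and 52 TPM and 46.8, 87.8 and 281 TPM (1.11 ± 0.64), and PGK1 was 333, 455 and 603 TPM and 257, 442 and 2204 TPM (1.00 ± 0.74). The first mimic library was below the controls for SLC2A1 and PGK1 and within their range for HK2. In each of these genes the second was near the controls or above them, and the third far above all others. PKM, the pyruvate kinase of tumours, was 551, 600 and 668 TPM and 486, 616 and 1591 TPM (0.48 ± 0.41), LDHA 525, 669 and 765 TPM and 360, 685 and 2581 TPM (0.74 ± 0.62), and PDK1 10.9, 7.5 and 13.2 TPM and 4.36, 10.4 and 49.3 TPM (1.09 ± 0.68). All 6 had an adjusted p of 0.999. Without mimic replicate 3 the log2 fold change was 0.089 for HK2, -0.076 for SLC2A1, -0.47 for PGK1, -0.20 for PKM, -0.39 for LDHA and -0.20 for PDK1.

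**Figure D3:**
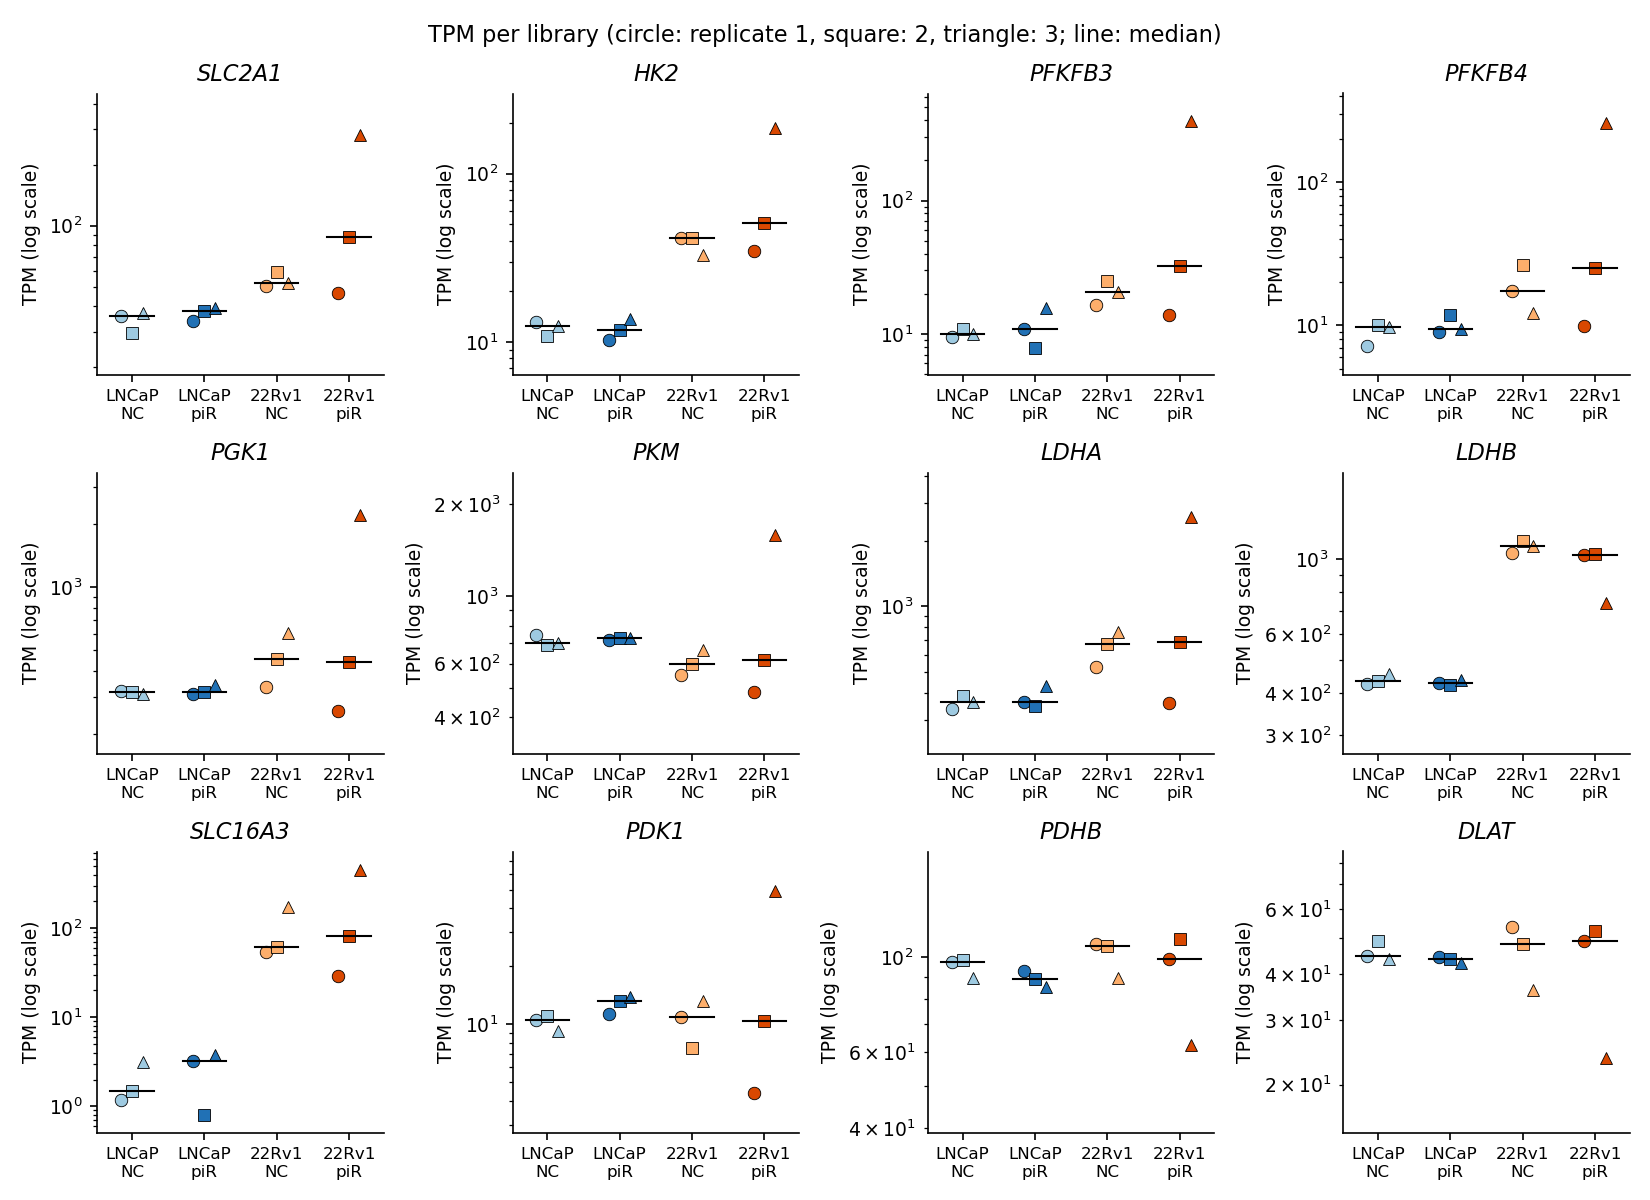
TPM (log scale) of 12 members in each library; symbols mark the replicate number and lines the group median. In 22Rv1 with mimic, replicate 3 (triangle) lies above all other 22Rv1 libraries for PFKFB3 (397 TPM) and LDHA (2581 TPM) and below them for LDHB (739 TPM), PDHB (62.4 TPM) and DLAT (23.7 TPM).

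The libraries of 22Rv1 were therefore compared one against the other 5, as a description with no test, on CPM (counts scaled to library size, here by TMM, and not to gene length). In mimic replicate 3, 22 of 35 members were the highest of the 6 libraries, against 28% of all genes, and 19 were over 2-fold above the mean of the other 5, against 8.55% of all genes. A further 9 were the lowest, against 31.1% of all genes, which is no larger a share. The 19 lay along the route from uptake to export and included SLC2A1 (4.78-fold), HK2 (4.33-fold), GPI (4.62-fold), ALDOA (5.61-fold), PGK1 (5.35-fold), ENO1 (4.84-fold), LDHA (3.99-fold) and SLC16A3 (6.29-fold). PFKFB3 (19.1-fold) and PFKFB4 (13-fold) had the largest values of the 35, and TPI1 (1.86-fold) was the highest of the 6 libraries without reaching 2-fold. Isozymes of 1 step differed, since HK1 was 1.37-fold higher beside HK2, and LDHB was 1.52-fold lower beside LDHA. The summed TPM of the 17 glycolytic enzymes was 20646, against 4422 to 7024 in the other 5, and all 37 members together took 2.6% of the TPM of the library, against 0.652% to 0.972%.

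Of the genes of pyruvate entry, MPC1, MPC2, PDHB and DLAT were low in that library, and some of them in the control library numbered 3 as well. Low values were not more common among the 35 members than elsewhere. Only 1 member was over 2-fold below the mean of the other 5, against 6.99% of all genes, and 9 were the lowest, against 31.1%. DLAT, the acetyl-transferring component of the PDH complex, was 53.7, 48.3 and 36.2 TPM with NC-mimic and 49.2, 52.4 and 23.7 TPM with mimic, and it was 2.24-fold below the mean of the others. MPC1 (1.92-fold), MPC2 (1.86-fold) and PDHB (1.70-fold) were the lowest of the 6 libraries too. PDHA1 was the lowest by CPM (1.22-fold) but the highest by TPM (164 TPM against 107 to 149), so its direction depended on the scale. PFKM and PFKFB2 were the lowest of the 6 by CPM only. Summed over the 5 genes of pyruvate entry, the level was 355 TPM, against 376 in NC-mimic replicate 3 and up to 530 in the others. Against replicates 1 and 2 of the same group, the log2 difference of replicate 3 was -0.94 with NC-mimic and -1.02 with mimic for MPC1, -0.72 and -1.06 for MPC2, -0.50 and -1.22 for DLAT, and -0.21 and -0.78 for PDHB.

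**Figure D4:**
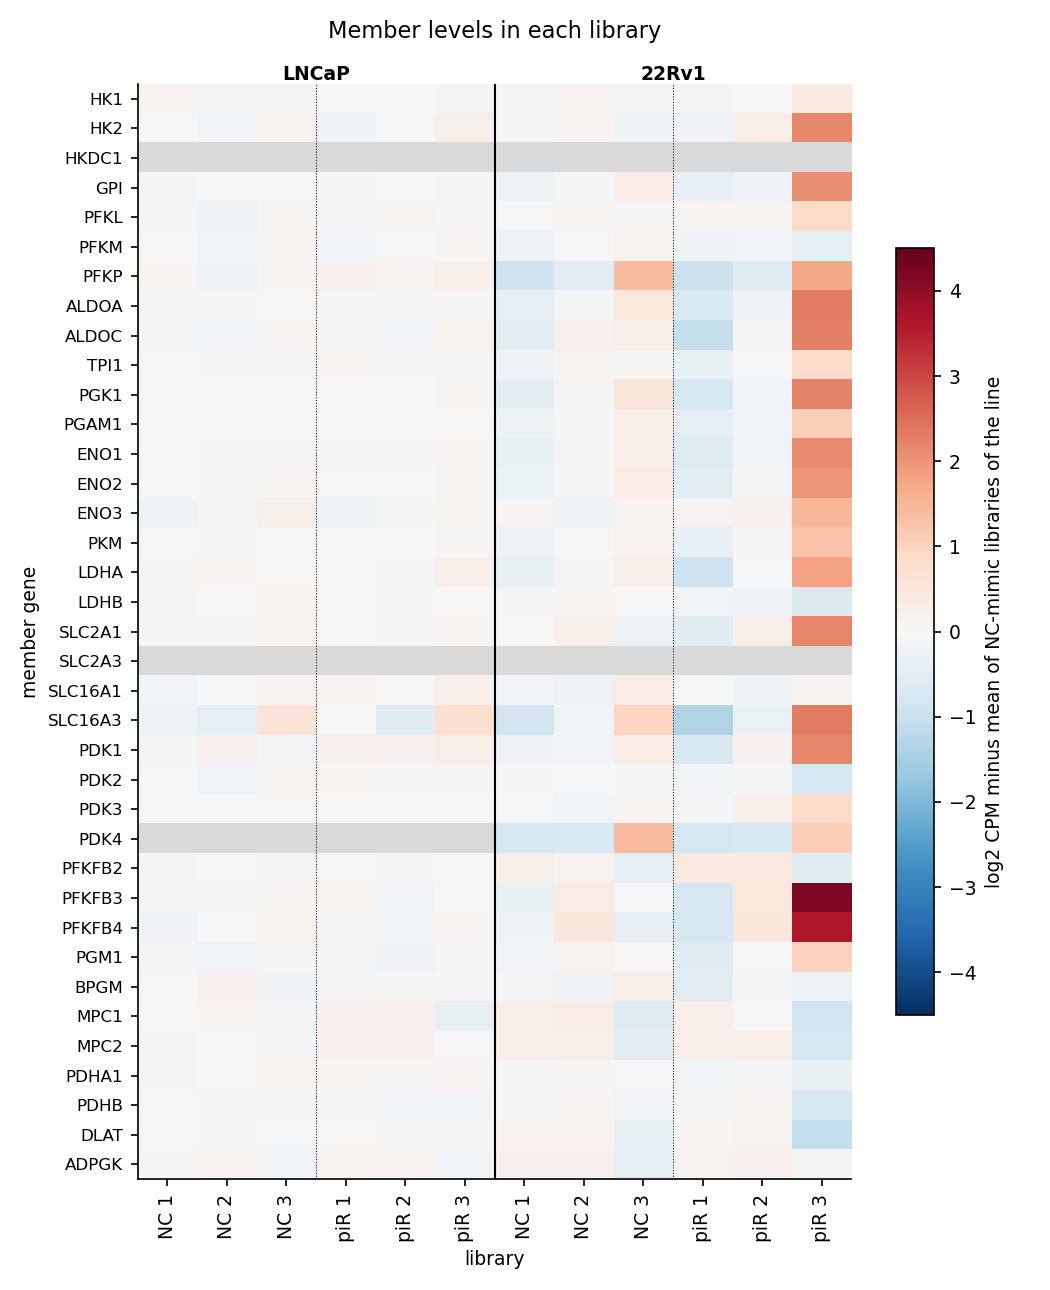
Log2 CPM of each member in each library minus the mean of the NC-mimic libraries of the same line (blue, lower; red, higher; grey, below the filter). The 6 LNCaP columns stay pale, SLC16A3 most coloured among them, and mimic replicate 3 of 22Rv1 shows most glycolytic genes in red, up to 4.20 for PFKFB3, and MPC1, MPC2, PDHB and DLAT in blue.

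Another mimic library deviated in the opposite direction, to a lesser degree. In mimic replicate 1 of 22Rv1, 18 of 35 members were the lowest of the 6 libraries, against 14.2% of all genes, and 11 were over 2-fold below the mean of the other 5, against 3.44% of all genes, among them SLC16A3 (3.35-fold), PFKFB3 (3.29-fold) and LDHA (2.44-fold). That mean contains replicate 3. Paired by replicate number, the mimic library was higher in 7 of 35 members for number 1 (median log2 -0.17), in 11 for number 2 (-0.05) and in 23 for number 3 (0.78). The control library of the same number was also compared. NC-mimic replicate 3 differed from NC-mimic 1 and 2 in the same direction as mimic replicate 3 from mimic 1 and 2 in 27 of 35 members, or 77.1%, against 63.3% of all genes, with 20 higher in both and 7 lower in both. PFKP (4.43-fold and 5.59-fold) and PDK4 (4.37-fold and 3.53-fold) were higher in both libraries numbered 3, whereas PFKFB3 was 1.01-fold and 20.3-fold higher.

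Other lists moved in the same library. A list of 25 genes known to rise in low oxygen, which holds no member, had 24 genes measured. Of these, 22 were over 2-fold higher in mimic replicate 3 than in the controls, as were 1335 of all 16898 genes tested. The list had a median log2 difference of 2.51 and a summed level of 6864 TPM, against 582 to 1127 TPM in the other 5. In mimic replicate 1 the median was -0.72. The 13 genes of the mitochondrial genome had a median of -1.83 in mimic replicate 3, with 10 of them over 2-fold lower, as were 1129 of all 16898 genes tested. Their summed level was 35734 TPM, against 94628 to 112058 TPM in the other 5. In LNCaP the low-oxygen list stayed between -0.07 and 0.16. The part of these in the values of the members was not tested. The basal, stromal, leukocyte and endothelial marker lists summed to at most 0.61, 27.9, 9.45 and 0.08 TPM in the 22Rv1 mimic libraries, and the luminal markers to 2101 to 2737 TPM.

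**Figure D5:**
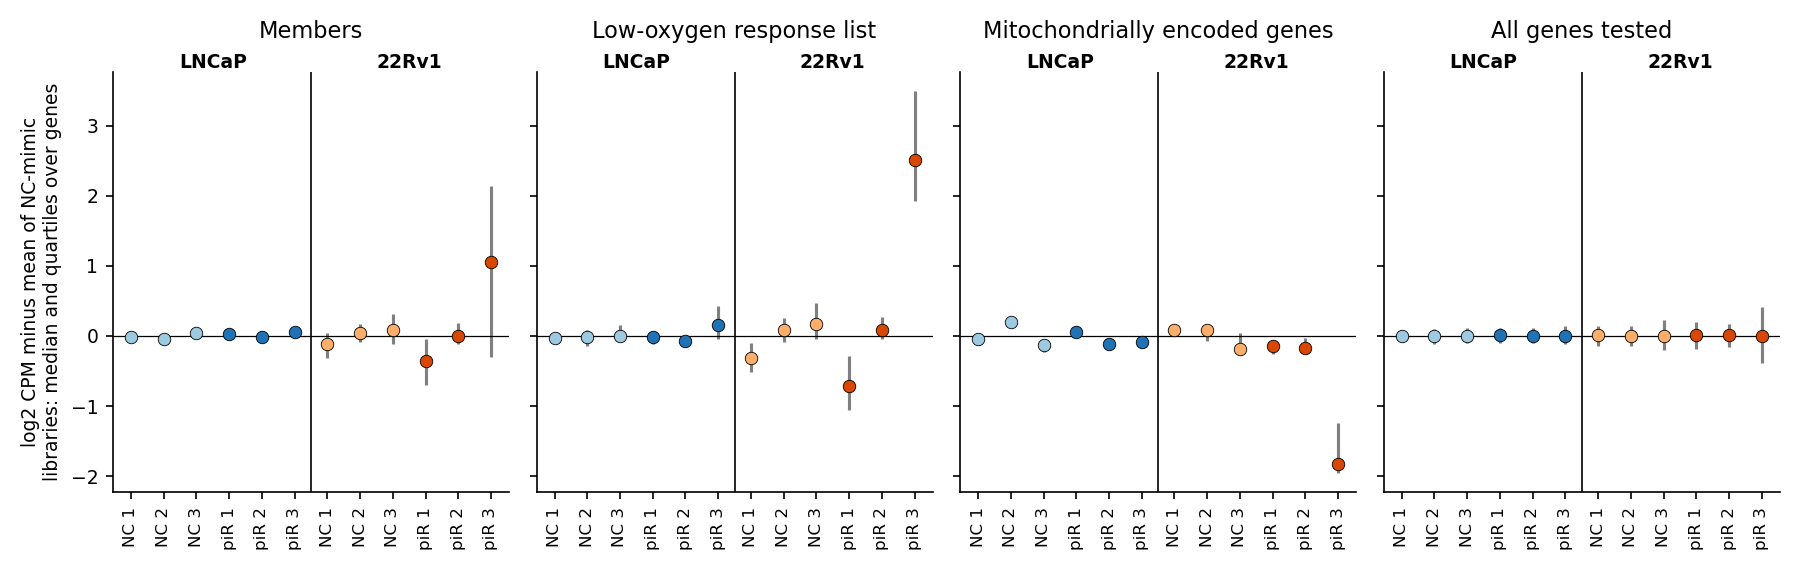
Median (points) and quartiles (bars) over genes of log2 CPM minus the mean of the NC-mimic libraries of the line, for the members, the low-oxygen list, the mitochondrially encoded genes and all genes tested, by library. In mimic replicate 3 of 22Rv1 the medians are 1.06 for the members, 2.51 for the low-oxygen list and -1.83 for the mitochondrially encoded genes, and 0 within rounding for all genes.

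Many glycolytic genes are known targets of the hypoxia-inducible factors, which bind DNA at the letters ACGTG or GCGTG, so the promoters of the members were read for these letters. The 250 bases before the start of each gene in RefSeq (GRCh38.p14, 1 start per gene) were at hand for 34 of the 37 members, all but SLC2A3, SLC16A1 and PFKFB2. Either motif, on either strand, was in 19 of 34, or 55.9%, and in 43.1% of all 27305 promoters. ACGTG was in 32.4% of the members and 18.7% of all promoters, and GCGTG in 41.2% and 31.9%. Of the 19 members over 2-fold higher in mimic replicate 3 of 22Rv1, 11 held a motif (57.9%), and of the other 15 members 8 did (53.3%). A match is only a match of letters, and these letters are common.

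The 5 promoters printed here were chosen after the values were seen: the 3 genes with the largest rise in mimic replicate 3 of 22Rv1 (PFKFB3, PFKFB4 and SLC16A3), LDHA as the lactate-making gene with 5 matches, and PDHB as a gene of pyruvate entry that was lowest there. Each is written 5′ to 3′ on the strand of the gene and ends at the base before its start, and capitals mark both motifs and their reverse complements. The letters CACGTG hold ACGTG on both strands and count as 2 matches.
PFKFB3 (chr10:6144671-6144920, plus strand, 1 match): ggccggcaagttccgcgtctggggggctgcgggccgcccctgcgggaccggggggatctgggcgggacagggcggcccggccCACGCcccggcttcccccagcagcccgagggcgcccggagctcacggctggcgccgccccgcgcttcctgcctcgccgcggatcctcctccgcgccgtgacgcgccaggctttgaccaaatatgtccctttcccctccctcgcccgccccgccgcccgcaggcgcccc
PFKFB4 (chr3:48556804-48557053, minus strand, 1 match): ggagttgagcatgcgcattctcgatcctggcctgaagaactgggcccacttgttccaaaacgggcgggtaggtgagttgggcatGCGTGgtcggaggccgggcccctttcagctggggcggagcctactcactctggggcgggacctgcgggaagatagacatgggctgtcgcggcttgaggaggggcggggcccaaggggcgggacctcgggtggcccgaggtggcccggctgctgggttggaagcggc
SLC16A3 (chr17:82228185-82228434, plus strand, no match): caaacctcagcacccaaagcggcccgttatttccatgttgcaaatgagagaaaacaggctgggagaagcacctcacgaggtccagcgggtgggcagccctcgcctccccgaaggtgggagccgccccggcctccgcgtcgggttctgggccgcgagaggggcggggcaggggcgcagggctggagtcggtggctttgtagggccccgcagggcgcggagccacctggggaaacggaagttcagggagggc
LDHA (chr11:18394313-18394562, plus strand, 5 matches): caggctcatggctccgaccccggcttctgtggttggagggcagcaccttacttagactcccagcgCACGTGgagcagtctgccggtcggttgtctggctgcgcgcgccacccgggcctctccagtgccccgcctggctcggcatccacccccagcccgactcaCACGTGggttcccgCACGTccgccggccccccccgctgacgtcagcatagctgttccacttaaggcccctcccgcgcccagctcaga
PDHB (chr3:58433833-58434082, minus strand, 6 matches): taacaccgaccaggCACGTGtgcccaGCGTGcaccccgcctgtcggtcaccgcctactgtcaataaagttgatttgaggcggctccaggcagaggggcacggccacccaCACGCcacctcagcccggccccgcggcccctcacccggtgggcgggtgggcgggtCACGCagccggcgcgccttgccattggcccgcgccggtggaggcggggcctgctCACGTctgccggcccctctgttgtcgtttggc
In mimic replicate 3 of 22Rv1, LDHA, with 5 matches, PFKFB3 and PFKFB4, with 1 each, and SLC16A3, with no match in this window (6.29-fold), were higher. PDHB, with 6 matches, was 1.70-fold lower. These promoters were picked, and a link between matches and levels was not tested.

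Whether the effect of the mimic differed between the lines was tested in all 12 libraries. By an adjusted p under 0.05 of edgeR's interaction term, 0 of 36 members tested and 0% of 18720 genes differed. At an unadjusted p under 0.05 it was 1 member, PFKFB3 (log2 difference 2.76 ± 1.26, adjusted p = 1), and 3.26% of all genes. The median over the members was 0.36, with 25 of 36 above 0, and it was -0.16 with 10 above 0 without mimic replicate 3 of 22Rv1. Of the other pathway genes in 22Rv1, 1 of 28 met the study's rule with mimic (3.57%, against 1.48% of all genes). It was SLC16A8 (0.70 ± 0.30, adjusted p = 0.999), a lactate transporter known from the retina. GAPDH, the enzyme between TPI1 and PGK1, was 4795 to 5863 TPM with NC-mimic and 3910 to 17624 TPM with mimic (0.68 ± 0.51), with the third mimic library highest.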

How the data were processed

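mRNA sequencing libraries of LNCaP and 22Rv1 cells with NC-mimic or piR-4447944 mimic, 3 per group, were grouped by the labels. The authors aligned reads to hg38 with STAR 2.7.1a and estimated expected counts per gene with RSEM 1.3.0, and the deposited tables hold these expected counts and TPM, with 0 columns of other series. RSEM divides reads shared by near-identical genes, so members with copies are less certain. The authors tested with DESeq2 1.34.0 in R 4.1.1 and used shrunken log2 fold changes.

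Expected counts were rounded and fitted with edgeR 4.0.16 in R 4.3.3 (TMM, filterByExpr, quasi-likelihood test, Benjamini-Hochberg adjustment over all genes of a fit), with the libraries of the 2 groups compared, or all 12 for the interaction. The scripts were tested on simulated data. Mimic comparisons used the study's rule (unadjusted p under 0.05, log2 difference beyond 0.2 in either direction) and an adjusted p under 0.05. In the main fits the rule was applied to unshrunken edgeR changes, unlike in the study. Line comparisons used an adjusted p under 0.05 with a log2 difference beyond 1 in either direction. Single values were tested with two-sided exact permutation tests. Intervals of count ratios are exact, at 95%, for counting error only. Expected counts ranged from 12161091 to 22179601 per library.

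Log2 fold changes were to be named for members called between the lines with NC-mimic, for members that met the study's rule in either line, and for LDHA, PGK1, PDK1, SLC2A1, HK2 and PKM. Other line differences were added by role after their values were seen. The members and lists were chosen with earlier results of these data known. Same-numbered libraries deviated together in 22Rv1 (correlations 0.252, 0.197 and 0.394) and not in each pair of LNCaP (0.0631, 0.00573 and 0.241), and the labels give no reason for a pairing. Alternatives were DESeq2 1.42.0 size factors and tests, limma 3.58.1 on log2(TPM + 1), other filters, the replicate number as a block, a joint fit of all 12 libraries, added reads of copies, and libraries left out. Adding reads of the ALDOA readthrough gene was chosen after seeing the data.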

Additional observations from a re-analysis of the deposited data

How the results depend on the processing

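Between the lines, the count of members called stayed within 9 to 13 with NC-mimic and 6 to 13 with mimic under all alternatives run, and 0 members passed the interaction test in any of them. Of all genes, 3561 to 7022 were called with NC-mimic and 3297 to 6771 with mimic. The PFKFB3 and PFKFB4 differences with NC-mimic (0.96 and 0.92) fell under the fold limit with limma on log2(TPM + 1). With the replicate block, 11 members were called between the lines with NC-mimic and 7 with mimic.

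In LNCaP the number of members that met the study's rule, 1, became 0 with DESeq2's Wald test, shrunken or not, 0 with all 12 libraries in one fit and 2 with limma on log2(TPM + 1). It ranged from 0 to 1 when libraries were left out, with 0 without each mimic library, and the 1 member without NC-mimic replicate 1 or 3 was not PDK1. It was 1 with the replicate block. Of all genes, 361 met the rule in the main fit, 2 to 891 under the other alternatives, and 284 to 1008 when libraries were left out. The change of HK2 reversed to -0.031 with limma. With libraries left out, HK2 ranged from -0.083 to 0.14, LDHA from -0.025 to 0.13, PFKFB3 from -0.065 to 0.084 and PKM from -0.004 to 0.038.

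In 22Rv1 the number, 1, became 4 with no low-count filter, 8 with all 12 libraries in one fit, and 0 with the replicate block, with shrunken DESeq2 changes, with limma, and without both libraries numbered 3. It ranged from 0 to 10 when libraries were left out: 10 without mimic replicate 1, 3 without mimic replicate 2, and 0 without mimic replicate 3 or any NC-mimic library. Of all genes, 250 met the rule in the main fit, 1232 with all 12 libraries in one fit, and 183 to 376 when libraries were left out. Without both libraries numbered 3, the changes reversed to -0.0019 for HK2, -0.16 for PGK1, -0.12 for PKM, -0.25 for LDHA, -0.19 for SLC2A1, -0.0083 for PDK1 and -0.025 for PFKFB3. With libraries left out, HK2 ranged from 0.089 to 1.49, PGK1 from -0.47 to 1.43, PKM from -0.20 to 0.76, LDHA from -0.39 to 1.16, SLC2A1 from -0.076 to 1.53, PDK1 from -0.20 to 1.52 and PFKFB3 from -0.027 to 3.29. The negative ends are without mimic replicate 3. The cause was not tested for any of these. By shares of counts instead of TPM, the leading isozyme differed in 14 of 40 families and groups, since counts weigh longer genes more. Counts of 8 or fewer in a group, as for SLC2A3 in both lines with NC-mimic, limit what could be seen of rare isozymes.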
